A study of Mus musculus with 29 samples.

Results

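The hearts of mice 2 weeks after the end of heart failure (HF) treatment were compared with hearts at the end of that treatment. Of 29 samples in the series 5 belong to this comparison, 3 labelled week 5 of the HF protocol (HF week 5) and 2 labelled week 2 of recovery (Recovery week 7, counted from the start of the study), and they were chosen by these labels alone. All were from male C57BL/6J mice that were 3 months old at the start. For 5 weeks both groups were given L-NAME at 0.3 mg/mL, which blocks the synthases of nitric oxide, together with 1% NaCl in the drinking water, and from the end of the first week a 28-day osmotic pump delivered Angiotensin II at 0.7 mg/kg/day. HF week 5 mice were taken at that point, whereas Recovery week 7 mice had returned to normal water, the pump having run out. Control week 19 (5 libraries) are untreated mice of the same start age taken at study week 19, and Recovery week 19 (5 libraries) were treated mice after 14 weeks of recovery. The model also holds mice at week 3 of treatment (HF week 3, 2 libraries) and treated mice after recovery to study weeks 9, 11 and 13 (2, 3 and 2 libraries). Controls were thus older than Recovery week 7 mice, and the effects of age and of recovery cannot be told apart in that comparison. The labels do not link libraries to cohorts or say that each came from its own mouse, so that the p-values measure only the spread between libraries. The tissue is labelled whole heart and whole ventricle, whereas the methods describe apical portions.

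Angiotensin II, salt and a block of nitric oxide raise blood pressure and load the ventricle. Loaded cardiomyocytes are known to release natriuretic peptides, to re-express fetal contractile genes and to lower the genes of ion channels, calcium handling and fatty acid oxidation, the main fuel pathway of the adult heart. Fibroblasts activated by Angiotensin II and TGF-beta lay down matrix, and macrophages enter the tissue. The comparison asks which of these genes had returned by 2 weeks after the treatment ended and which had not. Expression is given in FPKM, the number of sequenced fragments scaled by transcript length and by library size. Fold changes are on the log2(FPKM + 0.5) scale, which understates the change of low genes, and are given ± their standard error. A gene was called at an adjusted p under 0.05.

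The 3 HF week 5 libraries did not resemble each other equally, and this bears on what follows. Across 12759 genes, libraries 2 and 3 correlated at r = 0.984, and library 1 with these at 0.956 and 0.952, while both Recovery week 7 libraries correlated at 0.988. Genes of the atria were high in HF week 5 library 1. Myl7, the atrial light chain of myosin, was at 18388, 152 and 6.16 FPKM in HF week 5 libraries 1, 2 and 3, at 0.967 and 1.07 in Recovery week 7, with the controls at 0.166 to 1.12. Summed over 6 atrial markers, the level was 81737, 2516 and 2230 FPKM in HF week 5, 666 and 382 in Recovery week 7, with the controls at 91.2 to 353. Outside HF week 5 library 1 most of that sum was Nppa, which a loaded ventricle also expresses, so that the sum does not measure atrial tissue there. Sln, the atrial inhibitor of the calcium pump, was at 9904, 147 and 1.28 FPKM in HF week 5 and at 0.603 and 1.17 in Recovery week 7. Bmp10, a defining atrial gene, was at 3.68, 0.268 and 0 FPKM in HF week 5 and at 0 in both Recovery week 7 libraries. Epicardial and mesothelial markers summed to 85.8, 32.9 and 12.5 FPKM in HF week 5, 4.21 and 3.51 in Recovery week 7, with the controls at 2.58 to 3.92. Adipoq, the adipocyte hormone adiponectin, was at 10.5, 15.6 and 0.0516 FPKM in HF week 5 and at 0 and 0.0518 in Recovery week 7. Adipoq did not stand for its whole list. Summed over 10 adipocyte markers the level was 2413.5, 2692 and 3240 FPKM in HF week 5 and 1812 and 1726 in Recovery week 7, with the controls at 1506 to 3284. Of 8 tested, 6 had a negative and 2 a positive log2 fold change. The part of these marker genes in the results below was not tested, and the counts of the lists are therefore also given without HF week 5 library 1. Those counts are not free of such markers, since library 2 also held Myl7 at 152 and Adipoq at 15.6 FPKM. In bulk tissue, fewer cells of a type and less RNA per cell cannot be told apart.

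Relative to Recovery week 7 library 1, the depth of the other library of that group was 0.836 and that of the HF week 5 libraries 0.949, 0.886 and 0.830, so that depth did not separate the groups. The absolute depth is unknown. A few cardiomyocyte genes are listed at 0 in all libraries of a group in which the heart cannot lack them. Myh6, the main myosin heavy chain of the mouse ventricle, is listed at 0 in HF week 5, Control week 19 and Recovery week 19 and at 106008 and 143712 FPKM in Recovery week 7. Mb, Myl2, Actc1, AK163440 and C130080G10Rik are likewise listed at 0 in Control week 19, Mb and AK163440 also in Recovery week 19, and RIE2 in HF week 5. No change of these genes is read from such values. Nppa is listed at 0 in HF week 3, which belongs to the model but not to this comparison.

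At Recovery week 7, 1027 of 12759 genes were higher than in HF week 5 (8.05%) and 861 were lower (6.75%). Over all genes the median log2 fold change was -0.05. Of the called genes 735 changed by at least 1 on the log2 scale, and in 1025 of the genes that rose and 852 of those that fell the groups did not overlap. Over all genes tested, groups without overlap were found for 2980 higher and 3445 lower genes. With each library centred on its median the numbers were 1160 and 621, so that 65.1% of the calls were rises in place of 54.4%. The total of called genes was 360 with only the groups compared in the model and 3064 without HF week 3. In HF week 3 library 1, 12816 genes were above 0 FPKM, against 18091 in library 2. Without HF week 5 library 1, 521 genes rose and 307 fell, and 786 genes were called in the same direction there and with all libraries. A single Recovery week 7 library gave fewer calls, 316 and 140 without library 1 and 234 and 146 without library 2.

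The largest rises among genes with no overlap, no value of 0 and at least 5 FPKM in the higher group (1425 genes passed these conditions) included genes of excitation and of the circadian clock. Scn4b, a beta subunit of the cardiac sodium channel, was at 0.346, 2.096 and 1.84 FPKM in the HF week 5 libraries and at 14.9 and 12.7 in the Recovery week 7 libraries. Its log2 fold change was 3.05 ± 0.39, with an adjusted p of 0.000342, and both recovery libraries lay inside the control range of 5.17 to 14.9. Jph2, which holds the sarcoplasmic reticulum to the T-tubules, was at 7.798, 21.98 and 14.8 FPKM and then at 92.3 and 104, a rise of 2.80 ± 0.48 in log2 (adjusted p 0.00148). Gpam, the mitochondrial enzyme that starts triglyceride synthesis, was at 0.705, 1.96 and 1.697 FPKM against 16.3 and 12.3, and the later values also stood above the control range of 2.36 to 9.78. The others were Gm129, Dbp, Ccdc85c, Gna12, Fbxo40, Nudcd3, Nfix, Gm2058 and Gpr27, with log2 fold changes of 2.48 to 3.10. The calls for Ccdc85c and Gpr27 were lost without HF week 5 library 1 (adjusted p 0.0586 and 0.125).

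Among the largest falls were atrial, adipocyte and mesothelial genes. Myl7, Sln, Cfd, Myl4, Dkk3, Msln, Cyp2e1 and Upk3b were among the 12, with mFLJ00163, Apoc1, C4a and Timp1. For Myl7 the log2 fold change was -7.45 ± 1.77 and for Upk3b, a mesothelial uroplakin, it was -3.31 ± 0.55. Without HF week 5 library 1 the calls of Sln and Cyp2e1 were lost (adjusted p 0.0728 and 0.0754). Timp1, an inhibitor of matrix proteases, had a value in HF week 5 that did not rest on 1 library. It was at 57.05, 25.1 and 16.2 FPKM in HF week 5 and at 3.003 and 2.41 in Recovery week 7, a difference of -3.19 ± 0.67 in log2 (adjusted p 0.00481, and 0.0283 without HF week 5 library 1). C4a, a complement gene with a near-identical neighbour, C4b, was at 52.1, 20.1 and 12.7 FPKM and then at 1.83 and 2.18. Reads of C4a and C4b can be split between the copies in ways that are not known here.

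**Figure D1:**
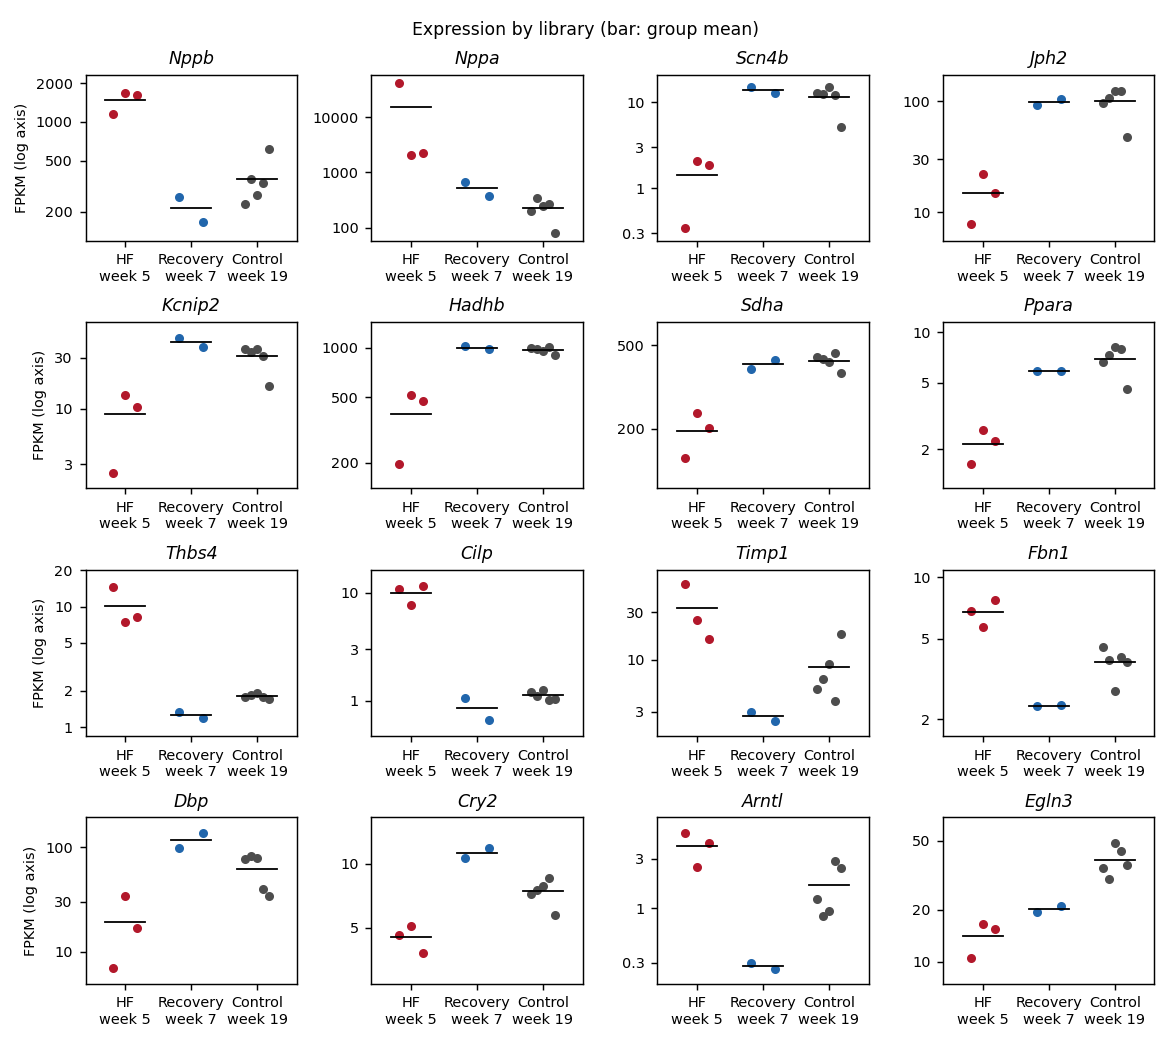
FPKM of 16 genes (log axis) by library at the end of treatment, after 2 weeks of recovery and in untreated mice, with bars at group means. In all panels the Recovery week 7 points do not overlap HF week 5, while for Egln3 they stand at 19.5 and 21.1 FPKM, also under the control range of 30.2 to 48.7.

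Natriuretic peptides and fetal genes. Of 10 genes of load and stretch, 6 fell and none rose by Recovery week 7, with a median log2 fold change of -1.17, and 3 fell without HF week 5 library 1. Nppb, which encodes the natriuretic peptide BNP, was at 1155, 1664 and 1610.3 FPKM in HF week 5 and at 260.1 and 167 in Recovery week 7. Every recovery value was under every HF value, the log2 fold change was -2.80 ± 0.52 (adjusted p 0.00224), and the controls were at 232 to 619. Nppa, encoding the atrial peptide ANP, was at 42004, 2099.8 and 2214 FPKM and then at 657 and 370.2, still above the highest control of the range 81.1 to 345. Its log2 fold change of -3.55 ± 0.96 was called (adjusted p 0.0185) and also without HF week 3 (0.0143), but not without HF week 5 library 1 (0.0757), and its difference from Control week 19 had an adjusted p of 1. Rcan1, a target of calcineurin, was at 45.6, 55.7 and 56.04 FPKM against 26.6 and 23.7 (adjusted p 0.00213). Xirp2, an actin-binding protein of the intercalated disc, was at 129, 175 and 145 FPKM against 65.7 and 56.8 (adjusted p 0.00213). Myh7, the fetal and slow myosin heavy chain, was at 237, 229 and 141 FPKM and then at 46.8 and 33.4, inside the control range of 16.3 to 48.1 (adjusted p 0.022, and 0.0738 without HF week 5 library 1). Acta1, skeletal alpha-actin, was at 578, 1317 and 1236 FPKM against 561 and 394, which lay below all 3 HF values without passing the test (adjusted p 0.19) and of which 1 value stood above the controls at 129 to 436.

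Excitation and calcium handling. No gene of these lists fell, whereas 7 of 17 genes of calcium handling, 5 of 14 potassium channel genes and 3 of 5 sodium and pacemaker channel genes rose. Their median log2 fold changes were 0.53, 0.64 and 1.39, and without HF week 5 library 1 the numbers that rose were 2, 1 and 2. Kcnip2, the subunit that shapes the transient outward potassium current, was at 2.502, 13.6 and 10.4 FPKM in HF week 5 and at 46.4 and 37.6 in Recovery week 7. Its log2 fold change was 2.45 ± 0.43 (adjusted p 0.0017), and both recovery libraries stood above the controls at 16.4 to 36.5. Atp2a2, the calcium pump SERCA2a of the sarcoplasmic reticulum, was at 1097, 1274 and 1153 FPKM and then at 1833 and 1998, a difference of 0.71 ± 0.20 in log2 (adjusted p 0.0229). Jph1 and Cacnb2 also rose, by 1.77 ± 0.39 and 1.65 ± 0.39. Without HF week 5 library 1 the calls of Atp2a2 and Cacnb2 were lost (adjusted p 0.0705 and 0.0549). The ryanodine receptor gene Ryr2, at 26.8, 27.3 and 20.4 FPKM against 29.1 and 32.01, did not pass the test (adjusted p 0.407). In the median of each list Recovery week 7 lay within 0.02 of Control week 19 for calcium handling and potassium channels and 0.33 above it for the sodium and pacemaker channels.

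Sarcomere and muscle ubiquitin ligases. Among 19 sarcomere genes 3 were called higher (2 without HF week 5 library 1), of which Myh6 and Actc1 are listed at 0 in some groups. The third was Mypn, encoding myopalladin of the Z-disc, at 0.669, 2.73 and 2.69 FPKM in HF week 5 and 8.15 and 10.3 in Recovery week 7 (log2 fold change 2.07 ± 0.43, adjusted p 0.00445). Of 10 ubiquitin ligase genes of muscle 4 rose (2 without HF week 5 library 1), Trim55, Fbxo40, Nedd4 and Fbxo32, the last pair being lost without it (adjusted p 0.0581 and 0.176). Trim55, known as MuRF2, was at 1.19, 1.43 and 1.82 FPKM and then at 10.8 and 9.96, a difference of 2.47 ± 0.37 in log2 (adjusted p 0.000664). Trim63, or MuRF1, was at 45.3, 72.6 and 60.8 FPKM against 67.4 and 70.2 and did not pass (adjusted p 0.371).

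Fuel metabolism. Of 25 genes of fatty acid uptake and oxidation 15 rose and none fell, and of 21 genes of the tricarboxylic acid cycle 15 rose and none fell. The median log2 fold changes were 0.79 and 0.76, and without HF week 5 library 1 the numbers were 11 and 7. Hadhb, a subunit of the mitochondrial trifunctional protein of fatty acid oxidation, was at 195, 516 and 475 FPKM in HF week 5 and at 1026 and 981 in Recovery week 7. The rise of 1.47 ± 0.26 (adjusted p 0.00175) set it beside controls at 907 to 1017. Acsl1, which activates long-chain fatty acids, was at 33.6, 75.6 and 62.3 FPKM and then at 134 and 141 (adjusted p 0.00195). Sdha, the catalytic subunit of succinate dehydrogenase, was at 145, 239 and 201 FPKM and then at 386 and 426, beside controls at 368 to 462, with a log2 fold change of 1.08 ± 0.16 (adjusted p 0.000601). Hadha, Slc25a20, Dlat, Sdhd and Idh3b rose by 0.86 to 1.27. Of 13 nuclear receptors and coactivators of metabolism 7 rose (4 without HF week 5 library 1), and Ppara, which drives the genes of fatty acid oxidation, was at 1.64, 2.602 and 2.23 FPKM and then at 5.91 and 5.87 (log2 fold change 1.28 ± 0.24, adjusted p 0.00255). Ppargc1a, encoding the coactivator PGC-1alpha, was at 4.32, 4.84 and 2.61 FPKM against 7.17 and 5.85 and did not pass (adjusted p 0.251).

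Of 20 genes of glycolysis and glycogen 9 rose and 1 fell (5 and 0 without HF week 5 library 1). Pfkm, the muscle phosphofructokinase, was at 139, 215 and 186 FPKM and then at 367 and 409, a difference of 1.13 ± 0.17 in log2 (adjusted p 0.00063). The subunits of the respiratory chain were called in shares near or under those of all genes (8.05% higher and 6.75% lower). Of 37 complex I genes 2 rose and 1 fell, and of 37 genes of complexes III to V 3 rose and none fell (1 and 1, and 0 and 0, without HF week 5 library 1). Ndufs1, the largest subunit of complex I, was at 63.7, 93.7 and 88.8 FPKM against 154 and 140.2 (adjusted p 0.00148), while the small Ndufa1 was at 1807, 2122 and 2176 against 683 and 1294 (adjusted p 0.0326). Transcript length moved with these values. With genes divided into 5 classes by transcript length, the median log2 fold change was -0.20 in the shortest class and 0.02 in the longest. With each library's trend on length removed, the medians of the 2 respiratory lists went from -0.28 and -0.24 to -0.00 and 0.16, and the calls to 3 higher and 0 lower in complex I and to 8 and 0 in complexes III to V. Cytosolic ribosomal protein genes are short, and 8 of 79 fell, beside 6.75% of all genes, with a median of -0.66. With the trend removed 10 fell with a median of -0.35, and 1 fell without HF week 5 library 1 and 4 with median centring. Of 76 mitochondrial ribosomal protein genes 7 rose, near the 8.05% of all genes (2 without HF week 5 library 1, 20 with the trend removed).

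**Figure D2:**
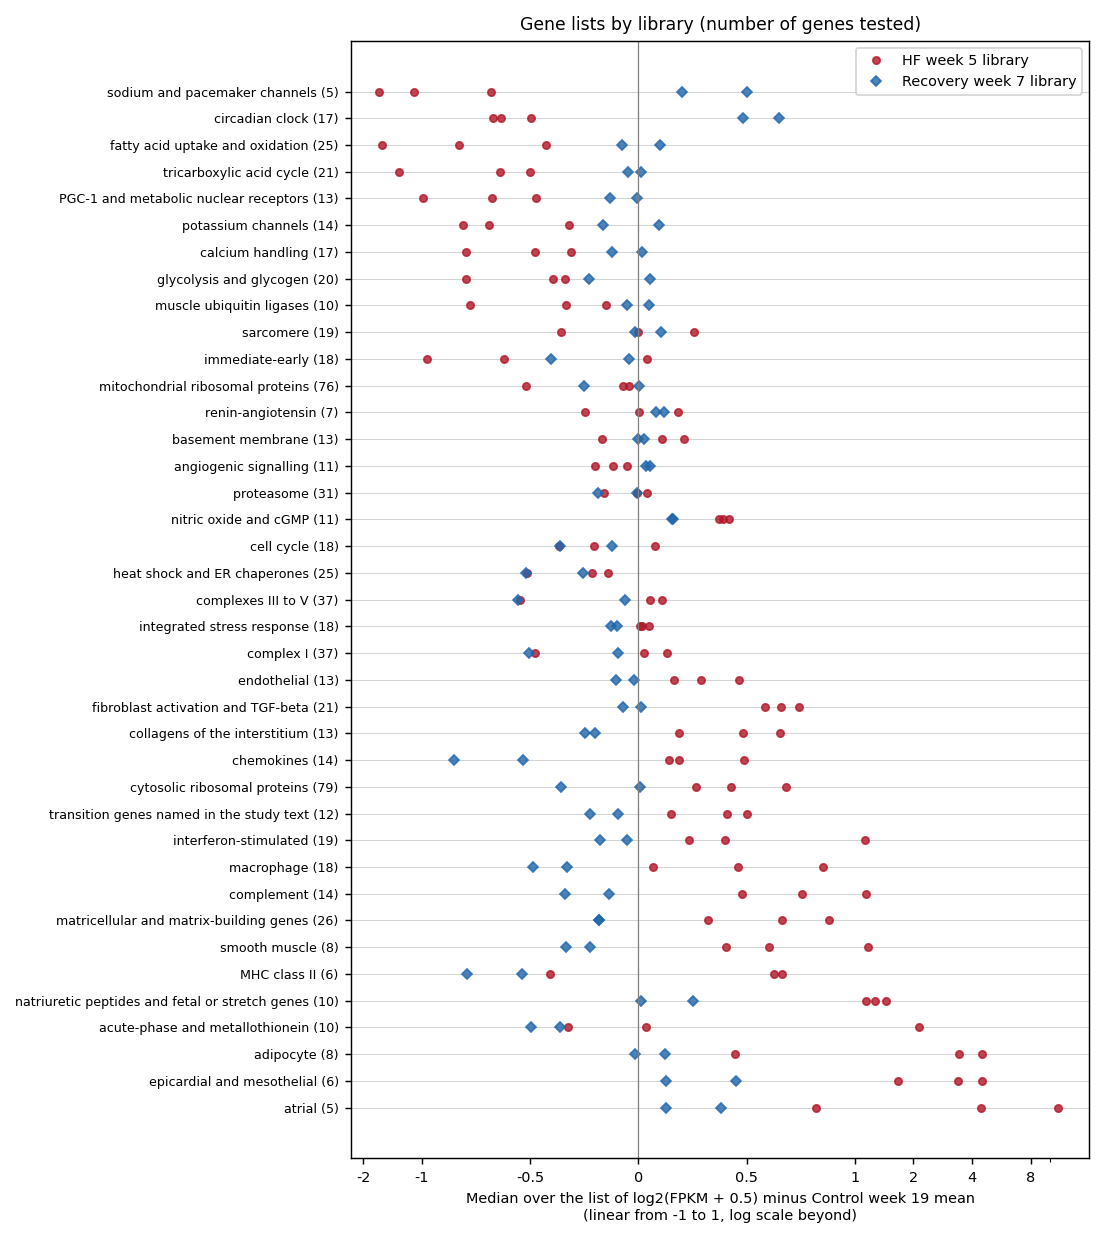
Each row is a list of genes with the number tested, each red point an HF week 5 library and each blue diamond a Recovery week 7 library, as the median over the list of log2(FPKM + 0.5) minus the Control week 19 mean (linear from -1 to 1, log scale beyond). The Recovery week 7 medians lie near 0 for most metabolic and matrix lists, with those of the circadian clock above it. Among those below it are chemokines, MHC class II, macrophages, chaperones and acute-phase genes. For complex I and complexes III to V, library 1 lies at -0.50 and -0.56 and library 2 at -0.09 and -0.06.

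Matrix and fibroblasts. Of 26 matricellular and matrix-building genes 13 fell and 1 rose (8 and 1 without HF week 5 library 1), of 13 interstitial collagen genes 6 fell (3 without it), and of 21 genes of fibroblast activation and TGF-beta signalling 9 fell (7 without it). Thbs4, a thrombospondin of the matrix, was at 14.4, 7.499 and 8.16 FPKM in HF week 5 and at 1.34 and 1.18 in Recovery week 7. Its log2 fold change was -2.53 ± 0.42 (adjusted p 0.00122), and both recovery values were under the lowest control of the range 1.71 to 1.94. Cilp, a matrix protein that binds TGF-beta, was at 10.8, 7.66 and 11.7 FPKM and then at 1.07 and 0.659, beside 1.01 to 1.25 in control (log2 fold change -2.95 ± 0.64, adjusted p 0.00584). Ctgf, a TGF-beta target also called Ccn2, was at 143, 87.4 and 82.7 FPKM and then at 30.5 and 22.05 (adjusted p 0.000418). The fibrillar collagen gene Col3a1 was at 52.96, 30.96 and 47.5 FPKM against 22.2 and 16.8 and fell by 1.13 on the log2 scale (adjusted p 0.00376). Col1a1 and Col1a2, the chains of type I collagen, were at 30.2, 21.2 and 23.8 and 44.9, 23.3 and 34.6 FPKM in HF week 5 and at 16.3 and 15.9 and 24.6 and 19.3 in Recovery week 7, and neither passed the test (adjusted p 0.0961 and 0.117). The log2 fold changes of Fbn1 (fibrillin-1) and Sparc were -1.35 and -0.94, and the 1 gene of the matricellular list that rose was Timp3, at 8.36, 5.83 and 8.405 FPKM and then at 21.3 and 16.5. Of 13 basement membrane genes 3 fell, Col18a1, Col4a1 and Lama4 (3 without HF week 5 library 1 and 1 with median centring), with a list median of -0.02.

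Immune genes. Complement genes fell most often of these lists, with 8 of 14 (5 without HF week 5 library 1) and a median log2 fold change of -0.88. Of the 8, Cfd, or adipsin, is also on the adipocyte list and was at 214, 189 and 1.28 FPKM in HF week 5 and at 0.749 and 0.152 in Recovery week 7, and the part of adipocytes in its fall was not tested. Cfb, factor B of the alternative pathway, was at 3.82, 1.72 and 1.47 FPKM in HF week 5 and at 0.339 and 0.324 in Recovery week 7 (log2 fold change -1.68 ± 0.31, adjusted p 0.00237). Of 19 interferon-stimulated genes 5 fell (3 without that library), and Irf7, a transcription factor of this response, was at 23.3, 13.2 and 25.3 FPKM and then at 7.55 and 9.22 (adjusted p 0.00376). Macrophage genes fell in 6 of 18 cases and in 1 without HF week 5 library 1. Cx3cr1, the fractalkine receptor, was that gene, at 0.667, 0.811 and 1.51 FPKM and then at 0.0732 and 0.145, all low values (adjusted p 0.0287 without the library). Ccr2, the receptor of recruited monocytes, was at 2.58, 0.758 and 1.31 FPKM against 0.319 and 0.3205 (adjusted p 0.0322, and 0.152 without the library). For MHC class II, 3 of 6 genes fell, and for chemokines 4 of 14 fell and 1 rose, with no call in either list without that library, and with 0 and 1 falls under median centring. That centring left 4 falls among macrophage genes. Summed over 18 macrophage markers the level was 899, 438 and 619 FPKM in HF week 5, 352 and 298 in Recovery week 7 and 363 to 615 in control. No lymphocyte, red blood cell or Schwann and neuronal gene was called among 3 tested of each, although the B cell gene Cd79a was called lower without HF week 5 library 1 (adjusted p just under the threshold).

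Vascular and transition genes. Endothelial genes fell in 6 of 13 cases (3 without HF week 5 library 1) and smooth muscle genes in 4 of 8 (3 without it). Vwf, the von Willebrand factor, was at 157, 40.2 and 47.6 FPKM in HF week 5 and at 15.8 and 20.5 in Recovery week 7 (log2 fold change -1.87 ± 0.39, adjusted p 0.00467). Tek, the angiopoietin receptor Tie2, was at 17.3, 13.1 and 18.6 FPKM and then at 8.51 and 8.39 (adjusted p 0.00248). Cdh5, the endothelial cadherin, was at 33.01, 45.5 and 58.7 FPKM against 39.2 and 48.2, with overlap and a log2 fold change of -0.03 ± 0.27 (adjusted p 0.953) whose sign turns with median centring. Tagln, a smooth muscle actin-binding protein, was at 61.1, 70.7 and 44.8 FPKM and then at 17.6 and 22.6 (adjusted p 0.00313). The study took a set of endothelial and mesenchymal transition genes from the literature, and 10 of the 12 listed here are those of the set that its text names for how they moved in these hearts, so that their direction is not independent evidence. Cdh5 and S100a4 encode the markers it stained in tissue. Of the 12, 5 genes fell, Ctgf, S100a4, Twist1, Actn1 and Twist2 (3 without HF week 5 library 1), and Snai1, Snai2, Bmp4, Smurf2, Thbs1, Klf4 and Cdh5 did not pass. S100a4, known as fibroblast-specific protein 1, was at 103, 54.5 and 39.1 FPKM and then at 15.97 and 10.6, under the lowest control of the range 19.4 to 50.4 (adjusted p against HF week 5 0.00222). None of 11 genes of angiogenic signalling was called with all libraries (1 without HF week 5 library 1, Aplnr, adjusted p 0.0444), and of 11 genes of nitric oxide and cGMP signalling 1 fell, Nos3, the endothelial nitric oxide synthase, beside 6.75% of all genes. It was at 35.4, 21.02 and 20.8 FPKM and then at 10.4 and 15.4 (adjusted p 0.0223, and 0.112 without HF week 5 library 1). Of 7 renin-angiotensin genes 1 rose, beside 8.05% of all genes. It was the receptor gene Agtr1a, at 3.66, 7.87 and 5.96 FPKM and then at 12.7 and 14.3 (adjusted p 0.0102, and 0.0575 without HF week 5 library 1).

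Circadian clock. Of 17 genes of the clock 12 rose and 1 fell, with a median log2 fold change of 1.24 (9 and 1 without HF week 5 library 1). In the clock, ARNTL and CLOCK bind E-boxes, CACGTG, and switch on the Per and Cry repressors and the output factors DBP, TEF and HLF, so that Arntl and its targets peak at opposite times of day. The hour at which hearts were taken is not given, and the effects of that hour and of recovery cannot be told apart. The 300-base windows around the starts of 10 of the 12 genes that rose were found in RefSeq (GRCm38.p6), Gm129 under its current symbol Ciart, while the other 2 were not matched. The palindrome CACGTG was in a window of 5 of these 10 genes and in no window of Arntl or of the 3 matched genes that were not called (Clock, Nr1d1 and Nfil3), and in 8.09% of all 27025 genes with a window. Shown are the 250 bases before the start of 3 of them, the 2 with the largest rise among those that hold the E-box and Per1, 5′ to 3′, with the E-box in capitals.
Gm129 (Ciart), chr3:95882229-95882478, minus strand: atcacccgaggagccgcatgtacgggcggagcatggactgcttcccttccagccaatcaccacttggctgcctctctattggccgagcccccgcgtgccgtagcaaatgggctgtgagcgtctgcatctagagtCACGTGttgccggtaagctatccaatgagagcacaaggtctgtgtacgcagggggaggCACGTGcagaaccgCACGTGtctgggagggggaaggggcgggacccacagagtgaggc
Bhlhe41, chr6:145865421-145865670, minus strand: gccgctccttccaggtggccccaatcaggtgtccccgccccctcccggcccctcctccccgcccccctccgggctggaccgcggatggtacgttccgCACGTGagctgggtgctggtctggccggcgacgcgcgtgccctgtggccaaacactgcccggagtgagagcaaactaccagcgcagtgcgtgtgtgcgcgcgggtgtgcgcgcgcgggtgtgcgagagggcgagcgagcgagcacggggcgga
Per1, chr11:69098699-69098948, plus strand: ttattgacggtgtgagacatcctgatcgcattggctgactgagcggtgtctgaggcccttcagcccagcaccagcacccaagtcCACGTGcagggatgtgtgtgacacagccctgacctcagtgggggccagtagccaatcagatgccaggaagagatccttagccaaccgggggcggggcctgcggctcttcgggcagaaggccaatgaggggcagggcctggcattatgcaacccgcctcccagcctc
The E-boxes of Gm129 begin 116, 58 and 44 bases before its start. A match describes these letters only and does not show that a factor was bound.

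Gm129, encoding a repressor of the clock, was at 0.858, 2.84 and 1.53 FPKM in HF week 5 and at 14.5 and 20.97 in Recovery week 7, a difference of 3.10 ± 0.64 in log2 (adjusted p 0.00432). Bhlhe41, which competes for E-boxes, was at 0.763, 2.85 and 1.65 FPKM and then at 9.897 and 9.33 (adjusted p 0.00813). Per1 was at 15.8, 8.62 and 5.71 FPKM and then at 23.3 and 27.6 (adjusted p 0.0215). Dbp, without an E-box in its window, was at 6.91, 34.3 and 16.9 FPKM and then at 97.4 and 138, a difference of 2.82 ± 0.50 in log2 (adjusted p 0.00185). Arntl moved the other way, from 5.36, 2.48 and 4.22 FPKM to 0.297 and 0.263, a difference of -2.48 ± 0.38 in log2 (adjusted p 0.00081). Cry2 was at 4.61, 5.08 and 3.81 FPKM and then at 10.7 and 11.8 (adjusted p 0.000601). In 8 of the 17 genes both Recovery week 7 libraries stood above every Control week 19 library, against 7.9% of all genes tested, and in 2, Arntl and Nr1d1, below. Tef, for example, was at 60.7 and 63.9 FPKM where the controls lay at 29.2 to 41.7. None of these differences from control passed the adjusted test.

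**Figure D3:**
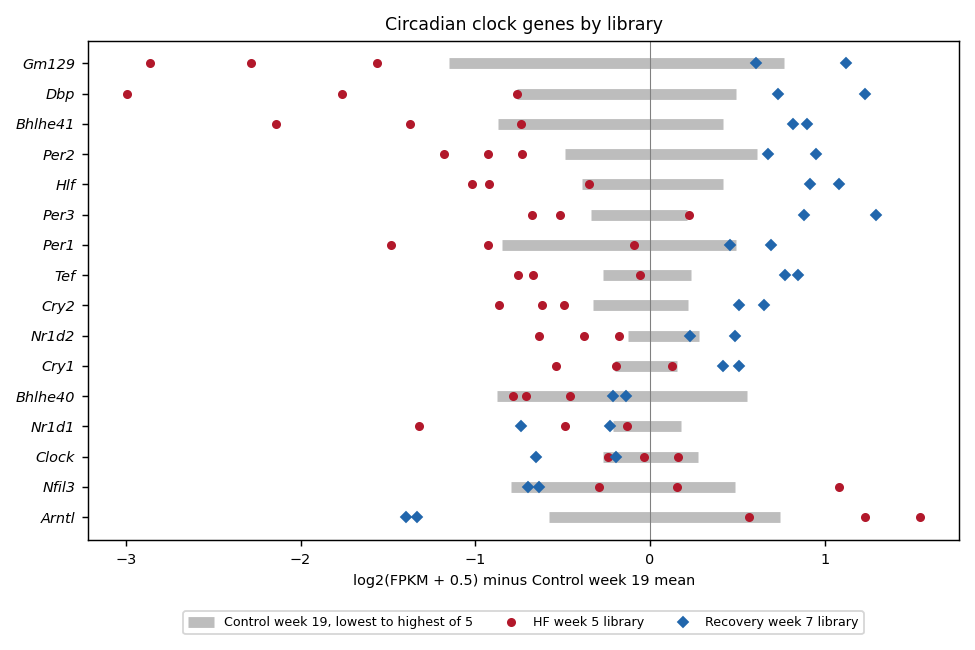
Log2(FPKM + 0.5) of 16 of the 17 clock genes minus the Control week 19 mean, with HF week 5 libraries as red points, Recovery week 7 libraries as blue diamonds and the range of the 5 controls as grey bars. Diamonds lie right of the bar in 8 genes, among them Dbp, Per3 and Cry1, and left of it in Arntl and Nr1d1, and in Arntl the HF week 5 points lie right of the diamonds.

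Stress genes. Of 25 heat shock and endoplasmic reticulum chaperone genes 4 fell, Manf, Pdia4, Calr and Sdf2l1, and 2 rose, Herpud1 and Hspd1 (3 and 1 without HF week 5 library 1, 1 and 2 with median centring). Manf, a secreted factor of the endoplasmic reticulum stress response, was at 17.8, 42.8 and 23.98 FPKM and then at 12.6 and 15.3, under the control range of 23.3 to 33.98 (adjusted p against HF week 5 0.0204). The median log2 fold change over the list was -0.21, or -0.03 with the trend on length removed. In 13 of the 25 both recovery libraries stood below every control, against 7.69% of all genes tested. Without Control week 19 library 5 it was 15, against 10.9%. The list median of the log2 difference from Control week 19 was -0.39 at Recovery week 7, -0.23 in HF week 5 and -0.21 in Recovery weeks 9 to 13. Among 18 genes of the integrated stress response 2 rose and 2 fell (0 and 2 without HF week 5 library 1), beside 8.05% higher and 6.75% lower of all genes. Nupr1 was at 56.5, 33.99 and 39.2 FPKM and then at 13.5 and 9.66 (adjusted p 0.00757). Of 18 immediate-early genes 1 fell, beside 6.75% of all genes. It was Atf3, at 32.7, 9.07 and 30.1 FPKM and then at 7.11 and 5.72 (adjusted p 0.0336, and 0.141 without HF week 5 library 1). Of 18 cell cycle genes 1 rose and 1 fell, and of 31 proteasome genes likewise, near or under the 8.05% higher and 6.75% lower of all genes. Of 10 acute-phase and metallothionein genes 2 fell, Osmr and Serpina3n (1 with median centring), beside the same 6.75%. None of the calls of these last 3 lists was made without HF week 5 library 1.

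To ask which HF genes were reset, genes were first chosen as those called between HF week 5 and Recovery week 19. The values of Recovery week 7 and of the controls do not enter that difference. They do enter the pooled spread behind its p-values, so that choosing and placing the genes are not fully independent. The choice gave 1525 genes higher in HF (12%) and 1567 lower in HF (12.3%), or 673 and 875 without HF week 5 library 1. The 1525 and 1567 genes were then placed by Control week 19. A gene was taken as reset where both Recovery week 7 libraries lay between the lowest and the highest of the 5 controls, as lagging where both lay outside on the side of HF, and as overshot where both lay outside on the other side. Of the genes higher in HF 685 were reset (44.9%), 129 lagged (8.46%) and 106 had overshot (6.95%), while in the other 605 (39.7%) the 2 libraries took different positions. Of those lower in HF 711 were reset (45.4%), 101 lagged (6.45%) and 127 had overshot (8.10%), with the 2 libraries split in 628 (40.1%). Over all 12759 genes 39.9% lay inside the control range, 7.9% above it and 7.69% below it. With all 5 controls the shares that lagged or had overshot were thus near those of any gene. In a model of all genes only 6 differed between Recovery week 7 and Control week 19 at an adjusted p under 0.05 (0.047%), all of them listed at 0 in the controls, and 461 did at an unadjusted p under 0.05 (3.61%), of which 184 were higher and 277 lower. Lagging genes that were also called numbered 2 among those higher in HF, AK163440 and Mb, and none among those lower in HF. Both are listed at 0 in control and in Recovery week 19, so that their choice and their position rest on such values. At an unadjusted p under 0.05 against Control week 19 the lagging genes numbered 38 of 129 and 25 of 101. Of overshot genes it was 39 of 106 and 22 of 127. Both sets were picked for lying outside the control range, so that these shares cannot be set beside the 3.61% of all genes.

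**Figure D4:**
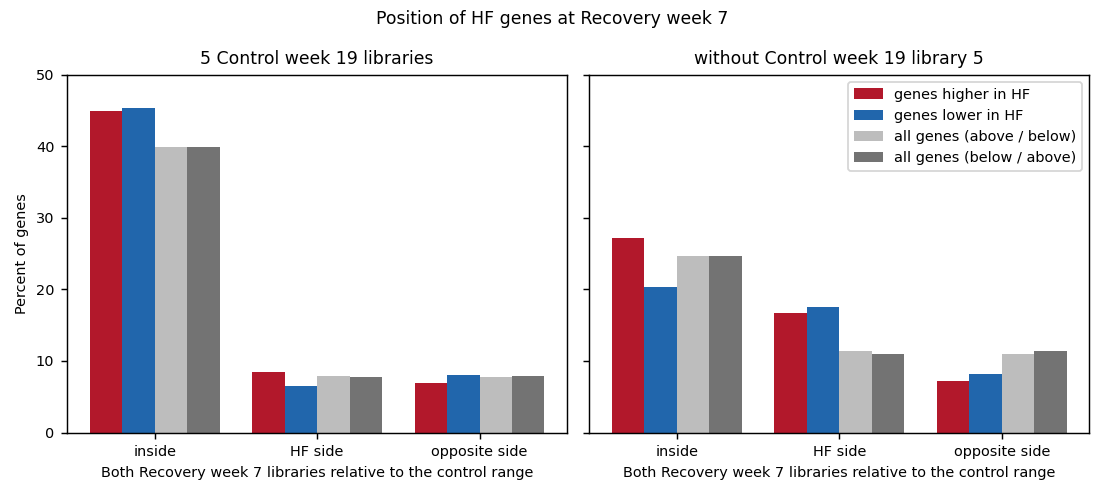
Percent of HF genes and of all genes with both Recovery week 7 libraries inside the control range, outside it on the side of HF, or outside it on the opposite side; the grey bars give all genes, light for above as the side of HF and dark for below as the side of HF. With 5 controls the HF genes and all genes have similar bars, and without library 5 the bars on the side of HF are higher, 16.7% and 17.6%.

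Control week 19 library 5 stood apart from the other controls in these genes and widened the range. With the model fitted without it, 1624 genes were higher and 1633 lower in HF, of which 27.2% and 20.3% were reset and 16.7% and 17.6% lagged, and 3 lagging genes were called. The shares of all genes inside, above and below the range were then 24.6%, 11.3% and 10.9%, so that the shares that lagged were no longer near them. Over the genes higher in HF, excluding those listed at 0, the median log2 difference from the control mean was 0.82, 0.54 and 0.56 in the HF week 5 libraries and 0.04 and -0.01 in the Recovery week 7 libraries. For those lower in HF it was -0.88, -0.52 and -0.59, and then -0.02 and 0.06. The spread of the 5 controls (SD 0.119 and 0.145) rested on library 5, at 0.205 and -0.254. The other 4 controls lay at -0.103 to -0.025 for genes higher in HF (SD 0.036) and at 0.041 to 0.091 for those lower in HF (SD 0.029). Beside these 4, both Recovery week 7 medians of genes higher in HF were above all controls, on the side of HF, and of those lower in HF 1 was below all controls and the other among them.

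**Figure D5:**
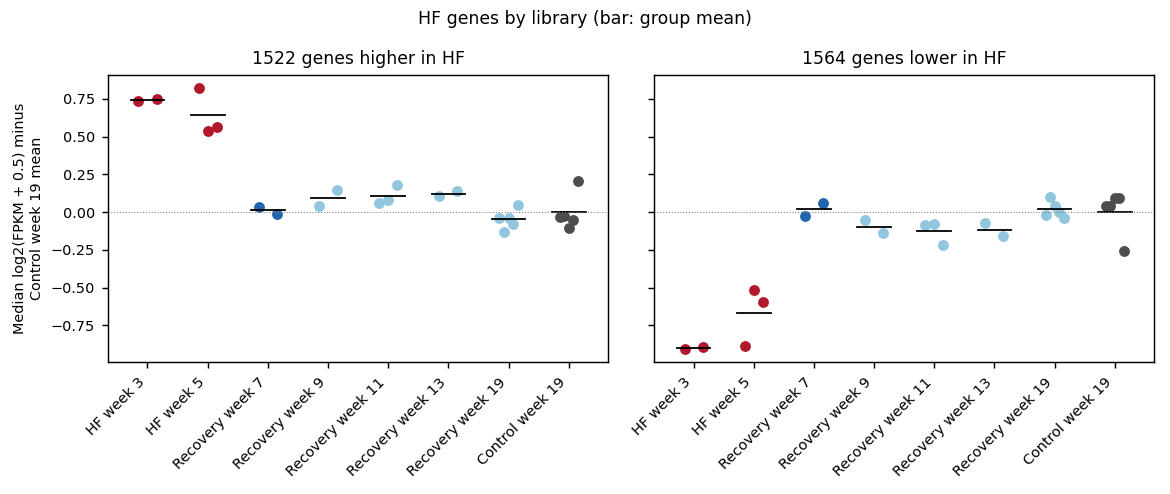
Median over the 1522 genes higher and the 1564 lower in HF of log2(FPKM + 0.5) minus the Control week 19 mean, with 1 point for each library and bars at group means, by study week. The Recovery week 7 points lie at the dotted control line, and those of weeks 9 to 13 lie slightly on the side of HF, at means of 0.092 to 0.121 and of -0.096 to -0.128.

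The reset genes with the largest change in HF were named for each direction. Among those lower in HF, Dag1, encoding dystroglycan, which links the cell to the matrix, was at 3.63, 5.04 and 4.72 FPKM in HF week 5 and at 25.5 and 26.9 in Recovery week 7, where controls were at 10.6 to 34.98. Nudcd3, a cochaperone, was at 0.997, 1.104 and 1.08 FPKM and then at 8.15 and 9.01, beside 2.95 to 10.3 in control. Jph2, Scn4b, Fbxo40, Trim55, Mypn and Gpr27, described above, belong to the same 10, with Rtn4rl2 and the symbol hnRNP A2/B1. Among the 10 higher in HF were Myl7, Dkk3, Hamp, Car3 and Cyp2e1, whose levels in HF week 5 differed strongly between libraries. Hamp, the iron hormone hepcidin, was at 392, 5.69 and 0 FPKM in the HF week 5 libraries and at 0 and 0 in Recovery week 7. Pmi, Brms1, CRLM3, 2410129H14Rik and mKIAA0471 completed the 10 and are at or near 0 in some controls. Epicardial genes fell in 4 of 6 cases, atrial genes in 4 of 5, adipocyte genes in 5 of 8 and skeletal muscle genes in 1 of 4, with 4, 2, 1 and 0 falls and 1 rise in the atrial list without HF week 5 library 1. CRLM3 was at 20.8, 9.03 and 6.32 FPKM in HF week 5 and at 0.000324 and 0 in Recovery week 7 (adjusted p 0.000342).

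Candidates that lagged at an unadjusted p only were looked at after their values were seen, and none passes the adjusted test against all 5 libraries of Control week 19. Gstt2, a glutathione transferase, was at 13.7, 11.98 and 10.01 FPKM in HF week 5 and still at 14.3 and 13.3 in Recovery week 7, above all controls at 6.25 to 9.38 (unadjusted p 7.57e-05, adjusted p 0.102). Pdgfrb, the PDGF receptor of pericytes and fibroblasts, was at 12.7, 15.5 and 19.01 FPKM and then at 14.3 and 13.9, with controls at 9.41 to 11.2. Wisp2, a matricellular CCN protein, was at 32.7, 17.98 and 34.02 FPKM and then at 15.4 and 16.3, with controls at 4.66 to 10.5. Of the genes lower in HF, Egln3, a prolyl hydroxylase that acts on hypoxia-inducible factor, was at 10.5, 16.5 and 15.6 FPKM and then at 19.5 and 21.1, below all controls at 30.2 to 48.7 (unadjusted p 0.000989, adjusted p 0.505). Adk, adenosine kinase, was at 72.5, 125 and 142 FPKM and then at 117 and 124, with controls at 149 to 236. The cochaperones of HSP90 Ahsa1 and Stip1, at 66.3 and 83.1 and 40.9 and 61.7 FPKM in Recovery week 7, lay under their control ranges of 84.3 to 94.8 and 62.2 to 69.6. None of them passed the test against HF week 5, with an adjusted p of 0.169 to 0.749 for the 7 genes named here.

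Other genes stood on the far side of the controls from HF. Of the matricellular and matrix-building list 10 of 26 genes lay below every control at Recovery week 7, against 7.69% of all genes tested, and 4 of these were genes higher in HF that had overshot. Of macrophage genes 8 of 18 lay below every control, but none of these was a gene called higher in HF, and the sum of the list in HF week 5 library 2 was inside the control range. The HF genes among the overshot included Fbn1, Col3a1, Sparc, Timp1, S100a4, Cfb and Ckap4. Of genes higher in HF 6.95% had overshot, near the 7.69% of all genes below the control range. Of those lower in HF it was 8.10%, near the 7.9% of all genes above it. No gene named in this paragraph passed the adjusted test against control. Ckap4, a membrane protein of the endoplasmic reticulum, was at 13.3, 11.5 and 11.6 FPKM in HF week 5, at 5.69 and 5.78 in Recovery week 7 and at 8.19 to 9.76 in control, and fell against HF week 5 by 1.01 on the log2 scale (adjusted p 0.000317). Its difference from control had an unadjusted p of 3.78e-05 and an adjusted p of 0.0689. On the other side, Wee1, a cell cycle kinase, was at 1.66, 1.58 and 1.803 FPKM and then at 6.89 and 5.83, above all controls at 2.69 to 5.16. Dgat2, which makes triglycerides, was at 54.02, 141 and 124 FPKM and then at 259 and 295, above controls at 136 to 204.

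Later recovery was set beside Recovery week 7 only to place it in time. Against the 7 libraries of Recovery weeks 9, 11 and 13, 3 genes were lower at Recovery week 7 and none higher at an adjusted p under 0.05 (0.0235%), among them Ckap4 and Cotl1, with 1372 at an unadjusted p under 0.05. Ckap4 and Cotl1, an actin-binding protein, were at 5.69 and 5.78 and at 4.83 and 6.72 FPKM at Recovery week 7 and at means of 9.63 and 14.1 in weeks 9 to 13. Nppb was at a mean of 845 FPKM in these weeks, above the 260.1 and 167 of Recovery week 7 (unadjusted p 0.000472, adjusted p 0.167). For each gene of a list the log2 difference of Recovery week 7 from weeks 9 to 13 was taken. The median of these differences was -0.48 for matricellular genes, -0.80 for macrophage genes and -0.67 for complement genes. For the circadian list it was 0.40. These medians were not tested.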

How the data were processed

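Poly(A)-enriched RNA of mouse hearts had been sequenced as paired ends, which the authors mapped with TopHat2 on mm9. The deposited FPKM values per gene are theirs, from Cuffdiff. The annotation and library scaling are not given in the sources used here, and the file holds no counts, so that absolute depth is unknown and relative depth was read from steps in the low values. Columns were matched to groups by name. The 5 columns of Control week 5 exceed its 4 labelled samples and were not used. Recovery week 9 has 2 columns for 3 labelled samples, and both columns were used. Of 29955 genes, 12759 passed a filter on the mean of 24 libraries (0.5 FPKM or more). After log2(FPKM + 0.5), 8 groups were modelled in limma 3.58.1 (trend, R 4.3.3) with 16 residual degrees of freedom. Tests are two-sided with Benjamini-Hochberg adjustment over all genes tested, and an adjusted p under 0.05 was a call. A design of 2 against 3 libraries allows no exact test of a single gene at 0.05, so that p-values rest on the spread pooled over groups.

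The genes named are the 12 largest called rises and falls with no overlap and a mean of at least 5 FPKM in the higher group, up to 4 called genes per list, 10 reset genes per direction and the transition genes. Some genes under this rule are not reported here. Other genes were named after their values were seen. The comparison, the 43 gene lists and the rules were chosen with earlier results of these data known. Promoter windows came from RefSeq (GRCm38.p6), and no coordinates were moved between builds. Alternatives changed the pseudocount (0.1 and 1), the filter, the scaling, the groups in the model, the reference group and the libraries, and a fit with the trend on transcript length removed was added after the data were seen. On data simulated for the comparison of Recovery week 7 with HF week 5 over 12759 genes the test recovered 53% of genes changed by 1 and 92% of those changed by 2 on the log2 scale. Scripts ran in Python 3.11.15 with numpy 2.4.6, pandas 2.3.3 and matplotlib 3.10.9.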

Additional observations from a re-analysis of the deposited data

Results flagged for a closer look

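In groups of 5 libraries the highest or lowest library was compared with the others, for 22 groups of values, and 11 had a library further from the rest than the 95% critical value of Dixon's test for 5 samples. Chance gives about 1 in 20 in groups taken without regard to their values. The single genes here were the reset genes named in the report, chosen by a range that a distant control widens, so that this rate is no yardstick for them. Control week 19 library 5 was that library in the medians of HF genes, with 0.205 over genes higher in HF (median of the 5 controls -0.029) and -0.254 over genes lower in HF (median 0.041). Single genes with a distant Control week 19 library were 2410129H14Rik at 7.46 FPKM, Brms1 at 19.3, Dkk3 at 0.750, Hamp at 0.368, Pmi at 20.8 and mKIAA0471 at 2.48, all above the other controls, and Gpr27 at 3.71, Nudcd3 at 2.95 and Scn4b at 5.17, all below them.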

How the results depend on the processing

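No paired analysis was possible because the numbers of the columns match no numbers in the sample labels. The counts of genes higher and lower at Recovery week 7 were 1839 and 1966 at an unadjusted p, 202 and 158 with only the groups compared in the model, and 1588 and 1476 without HF week 3. Leaving out 1 library at a time gave 234 to 1145 higher and 140 to 1017 lower genes, with the fewest higher without Recovery week 7 library 2 and the fewest lower without Recovery week 7 library 1. With 1 Recovery week 7 library left, a position rests on that library alone, and it is assumed to vary like the other groups. The cause of these shifts was not tested, apart from the fewer libraries. Of genes higher in HF 27.2% to 66.3% were reset and 7.53% to 20.4% lagged in the same exercise, and of those lower in HF 20.3% to 63.5% and 5.26% to 19.4%, the lowest shares of reset genes being those without Control week 19 library 5. Recovery weeks 9 to 13 as the reference put 1.72% of genes lower in HF on the side of HF, and 16.8% of those higher and 23.2% of those lower in HF had then overshot, against 9.15% below and 11.4% above over all genes. Lagging and called genes higher in HF numbered 47 where both the HF genes and the call were taken at an unadjusted p, 5 with HF genes chosen against Control week 19, and 0 with Recovery weeks 9 to 13 as the reference. Those lower in HF numbered 41 with both at an unadjusted p, 1 with quantile normalization and 0 to 1 with 1 library left out. Genes that were not called turned sign for Cdh5 (0.021) and Smurf2 (0.022) under median centring, for Smurf2 (0.028) under quantile normalization and for Tnni2 (0.095) with the trend on length removed. With 1 library left out the log2 fold change ranged from -0.12 to 0.18 for Ace, -0.25 to 0.16 for Cdh5, -0.006 to 0.43 for Klf4, -0.70 to 0.24 for S100b, -0.078 to 0.013 for Smurf2, -0.80 to 0.27 for Tnni2 and -0.35 to 0.35 for Vegfa. Of 143 named genes that were called none changed sign in 14 alternatives and 19 kept their call in all of them, while 109 lost it with only the groups compared, 96 and 84 without Recovery week 7 library 2 and 1, and 57 without HF week 5 library 1. Depth was not given, and low genes are the least certain.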
